A study of Homo sapiens with 12 samples.

Results

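The 42 genes described here encode the core machinery of autophagy together with the regulators TFEB and TFE3 and 6 lysosomal proteins. Autophagy wraps cytoplasm, protein aggregates or organelles in a double membrane, the autophagosome, which fuses with the lysosome so that its load is degraded. The ULK kinase complex and the PIK3C3 lipid kinase complex start the membrane, ATG9A, the ATG2 proteins and the WIPI proteins supply and shape it, and conjugation enzymes attach ubiquitin-like ATG8 proteins to its lipids. Cargo receptors bind both the load and ATG8 proteins, and TFEB and TFE3 are transcription factors that move to the nucleus when the kinase mTORC1 is inactive and raise lysosomal and autophagy genes. Neurons depend on this route because they do not divide and cannot dilute damaged proteins. The genes were taken by symbol, as the rows of the count table whose Ensembl identifier carries one of the 42 names. All 42 were found among 60710 rows, and all 42 were among the 16366 genes with enough counts to be tested.

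RNA was measured by mRNA sequencing in SH-SY5Y, an established human neuroblastoma line used as a model of neurons, which divides in culture and was cloned from a single tumour's line. The 4 groups of 3 libraries were cells given the solvent DMSO alone, or 5 µM HPPE, zinc protoporphyrin (ZnPP) or tin protoporphyrin (SnPP) in DMSO, each lysed after 5 h. ZnPP and SnPP are the porphyrin of heme with zinc or tin in place of iron and are known as inhibitors of heme oxygenase, whereas the labels do not spell out HPPE. Nothing in the labels says that the libraries of a group came from separate cultures, so the p-values measure only the spread between these samples, which may be technical.

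Library totals ran from 1337028 counts (ZnPP replicate 1) to 9145399 (SnPP replicate 2), so 3 counts were worth between 0.337 and 2.26 counts scaled to sequencing depth (CPM, per-library scaling by TMM). HMOX1, a known target of the stress regulator NRF2 and the check of the treatment labels, averaged 5.90 ± 1.57 CPM in DMSO, 351.5 ± 17.6 with HPPE, 47.0 ± 19.2 with ZnPP and 7.38 ± 0.53 with SnPP (SD, n = 3). SnPP lay close to DMSO, so HMOX1 checks the HPPE and ZnPP labels but not that of SnPP. Of 12 sympathetic neuroblastoma markers 11 were tested, and their summed level was 5347 to 5604 CPM in DMSO and 4681 to 5220 CPM over the 9 treated libraries, whereas TH, which encodes tyrosine hydroxylase, had 5 counts in all libraries together. Of 8 mesenchymal markers 7 were tested, with sums of 1122 to 1149 CPM in DMSO and 1106 to 1350 CPM in the treated libraries, and PRRX1 had 1 count in all. Schwann cell markers summed to at most 6.86 CPM and leukocyte markers to at most 1.32 CPM, with FOXD3, LYZ and CD3E at 0. Libraries also differed in how their levels followed transcript length. The Spearman correlation, across genes, between how far a library lay from each gene's mean and the length of the longest transcript was 0.44, 0.19 and -0.46 in the DMSO libraries, -0.10, -0.47 and -0.45 with HPPE, 0.22, 0.38 and 0.57 with ZnPP and -0.54, 0.52 and -0.18 with SnPP. The part of the marker shifts in the results was not tested, and in bulk RNA fewer cells of a type and less RNA per cell cannot be told apart.

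Against DMSO, few of the 42 genes passed the test with any compound. Differences are given as log2 fold changes with standard errors from the quasi-likelihood test of edgeR, and calls were made where the p adjusted over all genes tested was under 0.05. With HPPE, GABARAPL1 and TFE3 rose and no gene fell. That is 2 of 42 (4.76%), against 4.04% of all genes tested in either direction (2.57% higher and 1.47% lower). With ZnPP, TFEB rose and no other gene of the 42 was called (2.38%, against 2.25% of all genes, 1.84% higher and 0.415% lower). With SnPP, TFEB rose and NBR1 fell (4.76%, against 2.28% of all genes, 1.9% higher and 0.379% lower). These shares rest on 1 or 2 genes and are not a result about the 42 as a group. Leaving out single libraries moved the counts. With HPPE 1 gene was left without DMSO replicate 1, DMSO replicate 2, HPPE replicate 2 or HPPE replicate 3. With ZnPP 2 genes were called without SnPP replicate 2. With SnPP none was called without DMSO replicate 1, 1 without DMSO replicate 2, HPPE replicate 3 or SnPP replicate 3, and 3 without DMSO replicate 3. The median log2 fold change of the 42 was -0.01 with HPPE, -0.17 with ZnPP and -0.10 with SnPP, beside 0.02, -0.00 and 0.01 over all genes tested. Genes above and below 0 numbered 21 and 21 with HPPE, 10 and 32 with ZnPP, and 9 and 33 with SnPP, and the 3 comparisons share the same DMSO libraries. Of all genes tested, 52.3% lay above 0 with HPPE, 49.5% with ZnPP and 51.6% with SnPP. These direction counts are given for the TMM-scaled fit alone. Summed over the 42 genes, the level was 2372 to 2414 CPM in DMSO, 2335 to 2378 with HPPE, 2300 to 2321 with ZnPP and 2207 to 2246 with SnPP.

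Of the regulators, TFE3 rose with HPPE, and TFEB rose with ZnPP and with SnPP. TFE3 (ENSG00000068323.17) lies on the reverse strand at chrX:49028726-49043486 of GRCh38. Its level was 41.3, 40.1 and 45.3 CPM in the DMSO libraries and 66.4, 67.2 and 78.2 CPM with HPPE. It was 56.5, 42.3 and 40.2 CPM with ZnPP and 51.1, 45.4 and 50.9 CPM with SnPP. Every HPPE library lay above every library of the other groups, whereas ZnPP and DMSO overlapped. TFE3 rose with HPPE by 0.75 ± 0.11 (adjusted p = 0.000526) and was also higher with HPPE than with ZnPP, by 0.68 ± 0.11 (adjusted p = 0.00211). Over SnPP it was higher with HPPE by 0.51 ± 0.10 (adjusted p = 0.0151). The differences from DMSO were 0.08 ± 0.12 with ZnPP (adjusted p = 0.761) and 0.24 ± 0.11 with SnPP (adjusted p = 0.322). The calls against DMSO and ZnPP held in all 23 alternative analyses. The call against SnPP was lost without HPPE replicate 2 (adjusted p = 0.0631), HPPE replicate 3 (0.102) or SnPP replicate 3 (0.0568), and with HPPE replicates 2 and 3 summed (0.0628).

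TFEB (ENSG00000112561.19), on the reverse strand at chr6:41683978-41736259, was the least abundant of the 42 genes per transcript length. It had 6, 12 and 3 counts in the DMSO libraries, or 0.794, 1.58 and 1.91 CPM. With HPPE it had 20, 21 and 6 counts (2.50, 2.45 and 1.90 CPM). With ZnPP it had 5, 35 and 37 counts (3.76, 4.58 and 4.45 CPM), and with SnPP 31, 34 and 28 counts (3.63, 3.82 and 3.9 CPM). All 6 libraries of the metal protoporphyrins lay above all DMSO and HPPE libraries, and HPPE replicate 3 lay just under the highest DMSO library. TFEB rose by 1.79 ± 0.30 with ZnPP (3.47-fold, adjusted p = 0.00381) and by 1.57 ± 0.29 with SnPP (2.96-fold, adjusted p = 0.00552). With HPPE the difference from DMSO was 0.89 ± 0.32 (adjusted p = 0.146), and TFEB was lower with HPPE than with ZnPP by a log2 difference of -0.90 ± 0.25 (adjusted p = 0.0312). That last call was lost without HPPE replicate 1 (adjusted p = 0.0526), HPPE replicate 2 (0.123), HPPE replicate 3 (0.0944), ZnPP replicate 2 (0.0803) or ZnPP replicate 3 (0.154), and also without a low-count filter (0.0600), with DESeq2 (0.0831) and with HPPE replicates 2 and 3 summed (0.0740). ZnPP and SnPP differed by 0.23 ± 0.22, with a 95% interval from -0.24 to 0.70. The counts of TFEB are few. The SnPP call was lost without DMSO replicate 1 (log2 fold change 1.19, adjusted p = 0.106) and with the compared groups fitted alone (0.0580), while the ZnPP call held in all 23 alternatives.

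**Figure D1:**
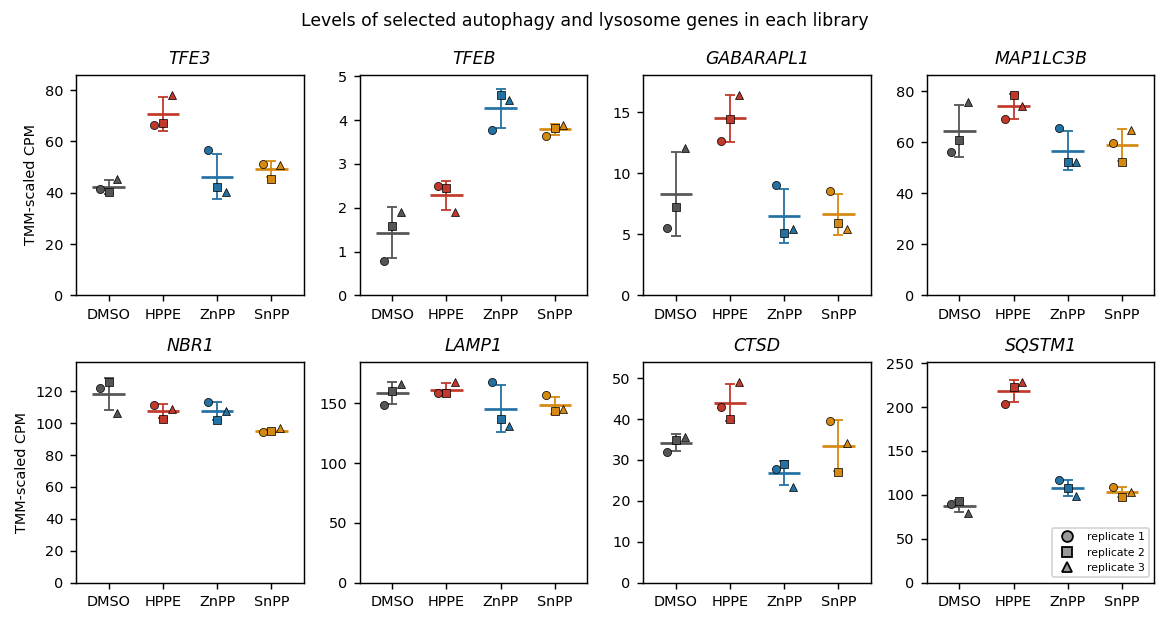
TMM-scaled CPM (y axis, from 0) of 7 of the 42 genes and of SQSTM1 in each library, by treatment; points are libraries, long bars the mean and thin bars the SD of 3. TFE3 and SQSTM1 stand higher in the 3 HPPE libraries than in all others, and TFEB in the 6 ZnPP and SnPP libraries. MAP1LC3B and LAMP1 overlap between most groups, and the SnPP libraries of NBR1 lie under all others.

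TFEB and TFE3 bind the CLEAR element, a palindrome in which the E-box CACGTG has GT before it and AC after it, in promoters of lysosomal genes. Promoters of TFE3, TFEB and GABARAPL1, which hold the largest rises among the 42 against DMSO, are printed below with those of LAMP1 and MCOLN1, where such matches occur, each as the 250 bases before the RefSeq start in GRCh38.p14, read 5′ to 3′ on the gene's strand. Capitals mark matches on either strand to CACGTG, the full CLEAR palindrome, the antioxidant response element core TGACNNNGC bound by NRF2, and the cyclic AMP response element TGACGTCA. The windows are chr12:10212627-10212876 (forward) for GABARAPL1, chrX:49043358-49043607 (reverse) for TFE3, chr6:41735609-41735858 (reverse) for TFEB, chr13:113296989-113297238 (forward) for LAMP1 and chr19:7522374-7522623 (forward) for MCOLN1. TFEB has 3 RefSeq starts, and the first in the table was used.
GABARAPL1: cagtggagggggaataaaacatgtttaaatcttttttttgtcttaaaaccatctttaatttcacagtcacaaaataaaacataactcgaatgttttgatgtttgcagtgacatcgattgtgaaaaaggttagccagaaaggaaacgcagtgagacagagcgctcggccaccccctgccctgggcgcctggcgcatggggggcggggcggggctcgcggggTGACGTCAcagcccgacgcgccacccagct
TFE3: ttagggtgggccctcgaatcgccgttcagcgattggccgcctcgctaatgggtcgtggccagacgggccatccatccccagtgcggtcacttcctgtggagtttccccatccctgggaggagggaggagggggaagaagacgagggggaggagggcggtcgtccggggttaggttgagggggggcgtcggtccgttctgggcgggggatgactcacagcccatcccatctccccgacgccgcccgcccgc
TFEB: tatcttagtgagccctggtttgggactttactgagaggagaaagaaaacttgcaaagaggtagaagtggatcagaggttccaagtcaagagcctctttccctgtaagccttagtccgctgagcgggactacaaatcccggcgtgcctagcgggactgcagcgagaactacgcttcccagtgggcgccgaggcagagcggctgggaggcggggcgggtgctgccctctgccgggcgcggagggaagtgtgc
LAMP1: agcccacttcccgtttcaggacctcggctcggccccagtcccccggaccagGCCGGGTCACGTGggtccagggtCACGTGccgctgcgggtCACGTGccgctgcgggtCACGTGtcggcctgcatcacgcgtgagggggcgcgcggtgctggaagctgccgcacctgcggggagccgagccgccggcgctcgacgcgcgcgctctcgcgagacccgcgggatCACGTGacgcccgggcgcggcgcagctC
MCOLN1: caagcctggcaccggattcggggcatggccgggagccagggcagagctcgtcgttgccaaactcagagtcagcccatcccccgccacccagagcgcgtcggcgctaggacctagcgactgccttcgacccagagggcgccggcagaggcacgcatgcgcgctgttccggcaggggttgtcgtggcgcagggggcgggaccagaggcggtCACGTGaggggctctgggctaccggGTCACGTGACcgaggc
The matches were counted in windows of 300 bases, from 250 before to 50 after the start, for 36 of the 42 genes and for 27305 RefSeq promoters in all. CACGTG occurred in 5 of the 36 (ATG3, ATG14, CTSD, LAMP1 and MCOLN1) and in 7.43% of all promoters. LAMP1 held 6 such matches, of which the last spans the start and ends outside the printed bases. The full palindrome, which contains CACGTG, occurred in MCOLN1 alone among the 36, from base -16 to base -7, and in 0.381% of all promoters. TGACNNNGC occurred in 6 of the 36 (ATG101, CALCOCO2, CTSD, CTSL, LAMP1 and MAP1LC3B) and in 13.6% of all. In LAMP1 its match overlaps the first CACGTG. TGACGTCA occurred in GABARAPL1, from base -30 to base -23, and in 1.98% of all. The windows of TFE3 and TFEB held none of the 4 motifs. Promoters of MAP1LC3A, RB1CC1, UVRAG, ATG4D, LAMP2 and CTSB were not in the table.

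Among the ATG8 family, whose lipid-bound members coat the autophagosome and recruit cargo receptors, GABARAPL1 was the gene called against DMSO. GABARAPL1 (ENSG00000139112.11, forward strand, chr12:10212458-10223130) measured 5.56, 7.26 and 12.1 CPM in DMSO and 12.6, 14.4 and 16.5 CPM with HPPE. It measured 9.04, 5.10 and 5.41 CPM with ZnPP and 8.56, 5.96 and 5.43 CPM with SnPP. The HPPE libraries lay above all others, by a small margin over DMSO replicate 3, and the other 3 groups overlapped. GABARAPL1 rose with HPPE by 0.99 ± 0.23 (1.98-fold, adjusted p = 0.0213). It was higher with HPPE than with ZnPP by 1.33 ± 0.24 (adjusted p = 0.00464) and than with SnPP by 1.09 ± 0.21 (adjusted p = 0.0129). The call against DMSO was lost without DMSO replicate 1 (log2 fold change 0.75, adjusted p = 0.220), DMSO replicate 2 (0.117), HPPE replicate 2 (0.105) or HPPE replicate 3 (0.0782), and with HPPE replicates 2 and 3 summed (0.0588). The call against ZnPP was lost without ZnPP replicate 3 (0.0589), and that against SnPP without HPPE replicate 2 (0.0944), HPPE replicate 3 (0.0637) or SnPP replicate 3 (0.0865). Its close copy GABARAPL3 had 6 counts in all 12 libraries.

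MAP1LC3B, the LC3 protein most used as an autophagosome marker, measured 56.4, 60.8 and 75.9 CPM in DMSO and 69.2, 78.8 and 74.4 CPM with HPPE. With ZnPP it measured 65.5, 52.5 and 52.3 CPM, and with SnPP 59.9, 52.2 and 64.7 CPM. DMSO overlapped every treated group, and HPPE lay above ZnPP and SnPP. Its differences from DMSO were 0.25 ± 0.11 with HPPE (adjusted p = 0.256), -0.18 ± 0.12 with ZnPP and -0.08 ± 0.11 with SnPP. MAP1LC3B was called higher with HPPE than with ZnPP, by 0.44 ± 0.12 (adjusted p = 0.0255). This call of MAP1LC3B was lost without HPPE replicate 2 (adjusted p = 0.136), HPPE replicate 3 (0.0785), ZnPP replicate 2 (0.0842) or ZnPP replicate 3 (0.170), and with HPPE replicates 2 and 3 summed (0.0742). The near-identical copy MAP1LC3B2 had 46 counts over all libraries and was below the filter, so the split of reads between the copies is uncertain.

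GABARAPL2 measured 46.2, 51.5 and 67.0 CPM in DMSO, 56.0, 62.1 and 69.0 CPM with HPPE, 38.4, 43.7 and 39.8 CPM with ZnPP and 58.6, 37.7 and 48.6 CPM with SnPP. The ZnPP libraries lay under all DMSO and HPPE libraries but overlapped SnPP. The gene was called higher with HPPE than with ZnPP, by 0.58 ± 0.15 (adjusted p = 0.0240), and its difference from DMSO was -0.35 ± 0.16 with ZnPP (adjusted p = 0.246). Its call was lost without HPPE replicate 2 (adjusted p = 0.101), HPPE replicate 3 (0.0861) or ZnPP replicate 3 (0.148), and with HPPE replicates 2 and 3 summed (0.0732). All 5 ATG8 genes, MAP1LC3A and GABARAP included, had a log2 fold change above 0 with HPPE (median 0.24) and below 0 with ZnPP (median -0.26), and these counts were equal under the 3 scalings tried. With each library's length trend removed, 4 of the 5 lay above 0 with HPPE and none with ZnPP. Of these 10 differences from the shared DMSO libraries, GABARAPL1 with HPPE alone passed the test.

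No gene of the ULK complex was called against DMSO. ULK1, the kinase that starts autophagy, measured 92.2, 97.9 and 96.4 CPM in DMSO, 94.9, 98.7 and 93.4 CPM with HPPE, 87.3, 78.9 and 74.3 CPM with ZnPP and 92.6, 82.9 and 89.9 CPM with SnPP. The ZnPP libraries lay below all DMSO and HPPE libraries. Its difference from DMSO was 0.01 ± 0.08 with HPPE and -0.28 ± 0.08 with ZnPP (adjusted p = 0.0842), and HPPE was called higher than ZnPP by 0.28 ± 0.08 (adjusted p = 0.0328). The call of ULK1 was lost without DMSO replicate 2 (adjusted p = 0.0505), HPPE replicate 1 (0.0532), HPPE replicate 2 (0.149), HPPE replicate 3 (0.0814), ZnPP replicate 2 (0.0757), ZnPP replicate 3 (0.211) or SnPP replicate 3 (0.0506), and also with DESeq2 (0.0532) and with HPPE replicates 2 and 3 summed (0.0784). The sign of its difference from DMSO with HPPE changed in 7 of 23 alternatives. RB1CC1, also called FIP200, is the scaffold of the complex. It measured 231, 184 and 155 CPM in DMSO, 170, 145 and 144 CPM with HPPE, 195, 225 and 287 CPM with ZnPP and 141, 229 and 149 CPM with SnPP. RB1CC1 varied widely within DMSO and SnPP, but every ZnPP library lay above every HPPE library. It was lower with HPPE than with ZnPP, by a log2 difference of -0.64 ± 0.18 (adjusted p = 0.0291), a call lost without HPPE replicate 2 (0.131), HPPE replicate 3 (0.105), ZnPP replicate 2 (0.0543) or ZnPP replicate 3 (0.216). The call of RB1CC1 was also lost without a low-count filter (0.148), with HPPE replicates 2 and 3 summed (0.0968) and with the length trend of each library removed (0.0678). Against DMSO the 5 genes ran on the log2 scale from -0.33 to 0.25 with HPPE, from -0.28 to 0.31 with ZnPP and from -0.27 to 0.38 with SnPP, the upper bound with SnPP being that of ATG101.

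The 5 genes of the PIK3C3 lipid kinase complex (BECN1, PIK3C3, PIK3R4, ATG14 and UVRAG) were not called in any of the 6 comparisons. Their log2 fold changes against DMSO ran from -0.12 to 0.06 with HPPE, from -0.12 to 0.16 with ZnPP and from -0.30 to -0.06 with SnPP. The 10 genes of the conjugation machinery, which process ATG8 proteins (ATG4A to ATG4D) and attach them to lipid (ATG3, ATG5, ATG7, ATG10, ATG12 and ATG16L1), were likewise not called in any comparison. Against DMSO they ran from -0.31 to 0.13 with HPPE, from -0.37 to 0.27 with ZnPP and from -0.30 to 0.00 with SnPP. Their medians were -0.08, -0.21 and -0.16.

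Of the genes that supply membrane (ATG9A, ATG2A, ATG2B, WIPI1 and WIPI2), none was called against DMSO, and all 5 log2 fold changes lay below 0 with HPPE, between -0.28 and -0.02. ATG2B encodes a lipid transfer protein. It measured 111, 96.5 and 79.8 CPM in DMSO, 92.4, 87.6 and 77.6 CPM with HPPE, 116, 118 and 132 CPM with ZnPP and 84.4, 111 and 92.1 CPM with SnPP. The ZnPP libraries lay above all others. ATG2B was lower with HPPE than with ZnPP, by a log2 difference of -0.51 ± 0.12 (adjusted p = 0.0153), and its difference from DMSO with ZnPP was 0.33 ± 0.12 (adjusted p = 0.147). The call was lost without HPPE replicate 2 (adjusted p = 0.0760), HPPE replicate 3 (0.0742) or ZnPP replicate 3 (0.124), with HPPE replicates 2 and 3 summed (0.0626) and with the length trend removed (log2 difference -0.17, adjusted p = 0.0718).

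Cargo receptors tie ubiquitinated proteins and organelles to ATG8 proteins. NBR1 (ENSG00000188554.15, forward strand, chr17:43170481-43211689) measured 122, 126 and 107 CPM in DMSO, 111, 103 and 109 CPM with HPPE, 113, 102 and 108 CPM with ZnPP and 94.2, 95.1 and 96.7 CPM with SnPP. The SnPP libraries lay close together and under every other library. NBR1 fell with SnPP by 0.33 ± 0.08 on the log2 scale (adjusted p = 0.0307). This call was lost in 9 of 23 alternatives, among them the removal of DMSO replicate 2 (adjusted p = 0.234), DMSO replicate 1 (0.141), SnPP replicate 3 (0.106), SnPP replicate 1 (0.0700) or HPPE replicate 3 (0.0569), a fit of the compared groups alone (0.162) and one without a low-count filter (0.0635), while its log2 fold change stayed between -0.38 and -0.28. OPTN, TAX1BP1 and CALCOCO2 were not called in any comparison.

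SQSTM1, which encodes the receptor p62 and is a known NRF2 target, is not among the 42 but is the best known of these receptors. It measured 89.6, 92.8 and 79.8 CPM in DMSO and 204, 223 and 229 CPM with HPPE. It measured 117, 108 and 99.2 CPM with ZnPP and 109, 97.4 and 104 CPM with SnPP. The HPPE libraries stood apart from the rest, and SQSTM1 rose with HPPE by 1.30 ± 0.09 (adjusted p = 4.74e-08), more than any of the 42 genes. It was higher with HPPE than with ZnPP by 1.03 ± 0.08 and than with SnPP by 1.08 ± 0.08. The ZnPP and SnPP libraries lay above DMSO without passing the test (0.27 ± 0.09, adjusted p = 0.122, and 0.22 ± 0.09, adjusted p = 0.227). Exons of other genes on the opposite strand cover 22% of its exon bases, and the strand setting of the counting is not given in the sources used here.

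The 6 lysosomal genes of the 42 were not called against DMSO with any compound. LAMP1, a major glycoprotein of the lysosomal membrane, measured 148, 160 and 167 CPM in DMSO, 158, 158 and 167 CPM with HPPE, 168, 137 and 131 CPM with ZnPP and 157, 144 and 145 CPM with SnPP. DMSO overlapped every treated group. The difference of LAMP1 from DMSO was 0.03 ± 0.09 with HPPE, with a 95% interval from -0.15 to 0.22. LAMP2, which also serves chaperone-mediated autophagy, measured 65.2, 63.2 and 54.9 CPM in DMSO, 67.3, 71.5 and 73.1 CPM with HPPE, 61.0, 51.2 and 51.2 CPM with ZnPP and 60.1, 61.1 and 57.1 CPM with SnPP. The HPPE libraries of LAMP2 lay above all others.

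CTSD, an aspartic protease of the lysosome, measured 31.9, 35.0 and 35.7 CPM in DMSO, 42.9, 40.1 and 49.1 CPM with HPPE, 27.9, 28.9 and 23.5 CPM with ZnPP and 39.5, 27.0 and 34.1 CPM with SnPP. HPPE lay above and ZnPP below every DMSO library, and SnPP spanned the DMSO range. The differences of CTSD from DMSO were 0.36 ± 0.14 with HPPE (adjusted p = 0.169) and -0.36 ± 0.15 with ZnPP (adjusted p = 0.203). Exons of other genes cover 52.7% of its exon bases, so its counts may include or lack reads of those genes. The cysteine protease CTSL measured 16.5, 18.7 and 23.6 CPM in DMSO, 20.5, 28.0 and 22.8 CPM with HPPE, 18.1, 13.2 and 11.2 CPM with ZnPP and 17.5, 13.4 and 16 CPM with SnPP. Its HPPE libraries overlapped DMSO and lay above ZnPP and SnPP.

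Between HPPE and ZnPP, LAMP2, CTSD and CTSL were called higher with HPPE, by 0.41 ± 0.09 (adjusted p = 0.0130), 0.72 ± 0.14 (adjusted p = 0.00746) and 0.89 ± 0.18 (adjusted p = 0.00829). Without ZnPP replicate 3 the adjusted p-values were 0.106, 0.0872 and 0.104, and the calls of LAMP2 and CTSL were also lost without HPPE replicate 2 (0.0758 and 0.0742), and that of LAMP2 without HPPE replicate 3 (0.0566). LAMP1, CTSB and the calcium channel gene MCOLN1 were not called. All 6 lysosomal genes had a log2 fold change above 0 with HPPE against DMSO (median 0.15) and below 0 with ZnPP (median -0.22), counts that were equal under the 3 scalings and with the length trend removed, while none of the 12 differences from the shared DMSO libraries passed the test.

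The rest of the pathway was read from 7 lists with 140 genes, of which 134 were tested. With HPPE 6 rose and 3 fell (6.72%), with ZnPP none rose and 2 fell (1.49%), and with SnPP none rose and 2 fell (1.49%), beside the shares of all genes given above. The medians of the 134 were 0.00, -0.15 and -0.05. With HPPE the 9 calls became 2 to 4 without DMSO replicate 1, DMSO replicate 2, HPPE replicate 2 or HPPE replicate 3, and 15 without DMSO replicate 3. Without SnPP replicate 2 there were 8 calls with ZnPP and 6 with SnPP. None was left with ZnPP without DMSO replicate 2, ZnPP replicate 2 or ZnPP replicate 3, or with SnPP without DMSO replicate 1, DMSO replicate 2, SnPP replicate 1 or SnPP replicate 3. Of the V-ATPase, the proton pump that acidifies the lysosome, 17 of 18 genes were tested and none was called against DMSO. With HPPE 14 of the 17 lay above 0, and with ZnPP 16 of the 17 lay below 0, both against the same DMSO libraries. These V-ATPase counts are given for the TMM-scaled fit alone. The HPPE and ZnPP libraries differed in their trend on transcript length, whose part in these counts was not tested. Of all genes tested, 52.3% lay above 0 with HPPE and 49.5% with ZnPP. ATP6V0C was below the filter, as were CASTOR1, VAMP8, MAP1LC3C, MAP1LC3B2 and TFEC in the other lists. Exons of other genes on the same strand cover 72.1% of the exon bases of ATP6V0C and 46.0% of those of CASTOR1. Their counts may therefore lack reads, and their levels are uncertain.

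Among 38 other lysosomal proteins, GLA, which encodes alpha-galactosidase A, rose with HPPE from 15.9, 17.3 and 19.1 CPM to 23.5, 25.2 and 25 CPM, by 0.53 ± 0.14 (adjusted p = 0.0338). TPP1, which encodes the protease tripeptidyl peptidase 1, fell with ZnPP from 35.5, 42.8 and 42.1 CPM to 24.8, 26.6 and 27.4 CPM, by 0.57 ± 0.12 (adjusted p = 0.0192). Removing DMSO replicate 2 ended both calls, with adjusted p-values of 0.143 for GLA and 0.150 for TPP1. The call of GLA was also lost without DMSO replicate 1 (0.239), HPPE replicate 1 (0.0675), HPPE replicate 2 (0.168), HPPE replicate 3 (0.101) or SnPP replicate 3 (0.0555), and with DESeq2 (0.0672) or HPPE replicates 2 and 3 summed (0.0891). That of TPP1 was lost without ZnPP replicate 2 (0.0666) or ZnPP replicate 3 (0.0902).

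Of 27 genes of mTORC1 and its lysosomal regulators, SESN3 alone was called against DMSO. This sestrin gene fell with SnPP from 119, 115 and 88.1 CPM to 69.2, 92.1 and 76.8 CPM, by 0.47 ± 0.11 (adjusted p = 0.0309), and the groups overlapped. The call of SESN3 was lost without DMSO replicate 1 (adjusted p = 0.188), DMSO replicate 2 (0.198), HPPE replicate 2 (0.0516), HPPE replicate 3 (0.0531), SnPP replicate 1 (0.0959) or SnPP replicate 3 (0.151), with the compared groups fitted alone (0.229) and with HPPE replicates 2 and 3 summed (0.0521). In autophagosome fusion, VPS39, a subunit of the HOPS tethering complex, fell with HPPE from 164, 170 and 168 CPM to 133, 139 and 144 CPM, by 0.28 ± 0.07 (adjusted p = 0.0388). All HPPE libraries lay below DMSO, and the call was lost without DMSO replicate 1 (adjusted p = 0.104), DMSO replicate 2 (0.190), SnPP replicate 3 (0.0550) or any 1 HPPE library (0.0921 to 0.147), without a low-count filter (0.104) and with HPPE replicates 2 and 3 summed (0.0997).

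With HPPE the mitophagy receptor gene BNIP3 rose from 51.1, 54.0 and 57.4 CPM to 70.8, 75.7 and 73.1 CPM, by 0.45 ± 0.09 (adjusted p = 0.00494). VMP1 and TMEM41B, which encode membrane proteins of the endoplasmic reticulum needed for autophagosome growth, rose by 0.52 ± 0.11 (adjusted p = 0.0109) and 0.45 ± 0.09 (adjusted p = 0.00545). VMP1 went from 71.8, 77.3 and 93.8 CPM to 109, 113 and 118 CPM, and TMEM41B from 44.1, 47.9 and 42.1 CPM to 63.9, 61.2 and 59.5 CPM. BCL2, whose product binds and restrains Beclin 1, fell with HPPE from 211, 183 and 165 CPM to 141, 135 and 130 CPM, by 0.47 ± 0.11 (adjusted p = 0.0163). In BNIP3, VMP1, TMEM41B and BCL2 the HPPE libraries did not overlap DMSO. TBK1, a kinase that phosphorylates cargo receptors, was the other called gene of the early factors (0.42 ± 0.09, adjusted p = 0.0132), and it is named after its value was seen. Without DMSO replicate 1 the calls of BNIP3 (adjusted p = 0.0598), VMP1 (0.108), TMEM41B (0.0521) and BCL2 (0.141) were lost. Those of VMP1 and BCL2 were also lost without DMSO replicate 2 (0.0813 and 0.0706), HPPE replicate 2 (0.0580 and 0.0857) or HPPE replicate 3 (0.0520 and 0.0893), and that of BCL2 with HPPE replicates 2 and 3 summed (0.0796). The call of TBK1 was lost without DMSO replicate 2 (0.0713), HPPE replicate 1 (0.0716) or HPPE replicate 2 (0.0586). Of the other transcriptional regulators, 8 were tested and none was called. The paralog MITF, named outside the rule as the lowest of this list with HPPE, stood at -0.90 ± 0.28 (adjusted p = 0.0876). It was not followed through the alternatives.

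**Figure D2:**
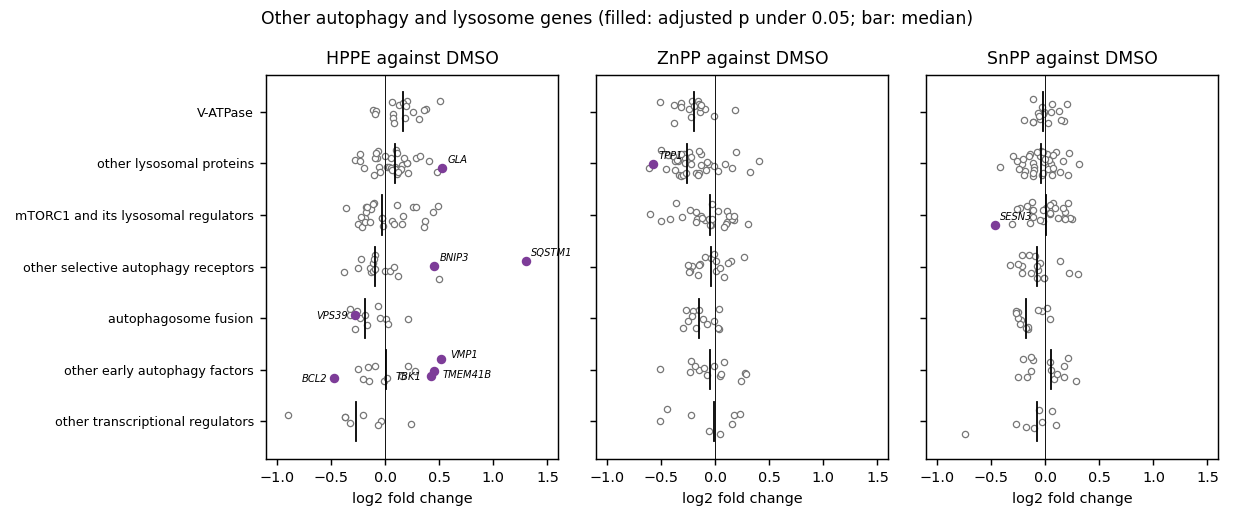
Log2 fold change against DMSO (x axis) of the other autophagy and lysosome genes tested, in 7 lists (rows), with 1 gene not shown, for HPPE, ZnPP and SnPP; vertical bars are list medians and filled, named points have an adjusted p under 0.05. SQSTM1 with HPPE (1.30) lies apart, and the V-ATPase median is 0.16 with HPPE and -0.20 with ZnPP.

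Between HPPE and ZnPP the members of the ATG8 family and the lysosome that were called were all higher with HPPE. In all, 8 genes were higher with HPPE (MAP1LC3B, GABARAPL1, GABARAPL2, ULK1, TFE3, LAMP2, CTSD and CTSL) and 3 lower (RB1CC1, ATG2B and TFEB), 11 of 42 or 26.2%. Of all genes tested 12.7% were called in this comparison, 6.44% higher and 6.26% lower. The median of the 42 was 0.11, beside 0.01 for all genes. In the other pathway lists 26 genes were higher and 6 lower of 134 (23.9%), among them 6 of 17 V-ATPase genes and 11 of 38 other lysosomal proteins, all of these higher with HPPE. The counts of these lists between HPPE and ZnPP were not followed through the alternatives. All genes called numbered 2078 and ran from 173 to 3517 with each library left out in turn. The count of 11 likewise rested on single libraries. It was 3 without HPPE replicate 2, 4 without HPPE replicate 3 and 1 without ZnPP replicate 3, that 1 being TFE3 (adjusted p = 0.0375), and it was 5 with HPPE replicates 2 and 3, the pair of a group with the lowest chi-square per degree of freedom (1.11), summed as 1.

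Transcript length moved with most of the 6 comparisons. Over the 42 genes, log2 fold change and length correlated at -0.45 with HPPE, 0.36 with ZnPP and -0.29 with SnPP against DMSO, at -0.45 for HPPE against ZnPP, -0.11 for HPPE against SnPP and 0.63 for ZnPP against SnPP (Spearman's rho, n = 42). These are descriptions, since the points of a comparison come from the same 6 libraries. Between HPPE and ZnPP the 8 genes higher with HPPE had a median length of 3150 nucleotides and the 3 lower ones 6635, beside 3778 for the 42. Over 16185 genes the correlation for HPPE against ZnPP was -0.23. With each library's length trend removed, it was -0.16 over the 42 genes and 0.02 over all. The count was then again 11 of 42 (13.3% of all genes), and 9 of these were shared with the first analysis, the same 8 higher genes and TFEB. RB1CC1 (log2 difference from -0.64 to -0.54, adjusted p = 0.0678) and ATG2B (from -0.51 to -0.17, adjusted p = 0.0718) were lost, and ATG13 and OPTN were gained. Against DMSO the same removal added WIPI2 with HPPE, ULK1 with ZnPP, and CALCOCO2 and PIK3R4 with SnPP, while 7.21%, 4.91% and 4.56% of all genes were then called.

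**Figure D3:**
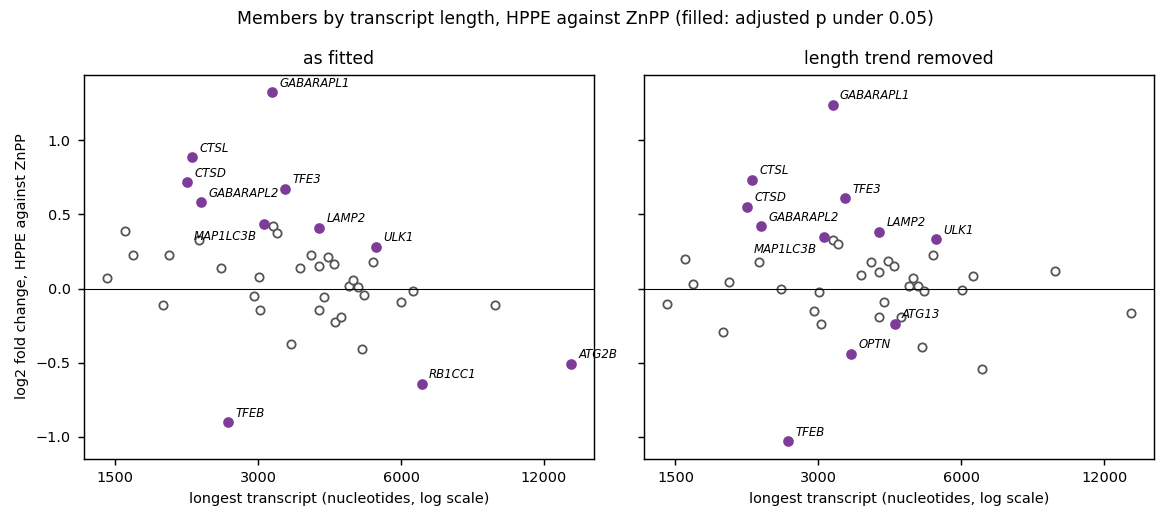
Log2 fold change of the 42 genes between HPPE and ZnPP (y axis) against the length of the longest transcript (x axis, log scale), as fitted on the left and with each library's length trend removed on the right; filled, named points have an adjusted p under 0.05. The 8 genes called higher are filled in both panels, whereas RB1CC1 (6635 nucleotides) and ATG2B (13684 nucleotides) are filled on the left only.

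HPPE and SnPP differed in GABARAPL1 and TFE3, both higher with HPPE (4.76% of the 42, against 1.45% of all genes 0.745% higher and 0.709% lower). Both calls were lost without HPPE replicate 2 (adjusted p = 0.0944 and 0.0631), HPPE replicate 3 (0.0637 and 0.102) or SnPP replicate 3 (0.0865 and 0.0568), and 5 genes of the 42 were called without SnPP replicate 1. With each library left out in turn, 91 to 342 of all genes were called. CTSL stood at 0.62 ± 0.16 (adjusted p = 0.0712) and TFEB at -0.67 ± 0.24 (adjusted p = 0.220). ZnPP and SnPP, which differ in their metal, gave no called gene among the 42, where 0.00611% of all genes (1 gene) was called by edgeR. At an unadjusted p under 0.05 there were 8 of the 42, beside 13.3% of all genes tested, and DESeq2 also called 0 of the 42. The largest differences were MAP1LC3A, at -0.55 with a 95% interval from -1.0 to -0.09, and RB1CC1, at 0.47 with an interval from 0.10 to 0.83. Over the 42 genes these were also the outermost bounds. Without SnPP replicate 2, 6 of the 42 were called, beside 1453 of all genes.

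Per transcript length, the 42 genes differed widely in level. In DMSO, CTSB stood highest at 54.9 ± 2.2 CPM per kilobase (SD, n = 3), followed by the receptor TAX1BP1 at 49.4 ± 4.6, a difference smaller than the sum of their SDs. WIPI2 (31.5 ± 2.0), LAMP1 (30.2 ± 1.8) and RB1CC1 (28.7 ± 5.8) came next and did not differ beyond their spread. The lowest were GABARAPL1 (2.59 ± 1.06), GABARAP (1.20 ± 0.25) and TFEB (0.551 ± 0.222). TFE3, at 12.4 ± 0.8, ranked 15 of 42 in DMSO and stood at 20.7 ± 1.9 with HPPE, while TFEB stood at 1.64 ± 0.17 with ZnPP and 1.46 ± 0.05 with SnPP. The levels of GABARAP, ATG9A and WIPI1 are less certain, since exons of other genes cover 55.7%, 38.8% and 28.1% of their exon bases.

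**Figure D4:**
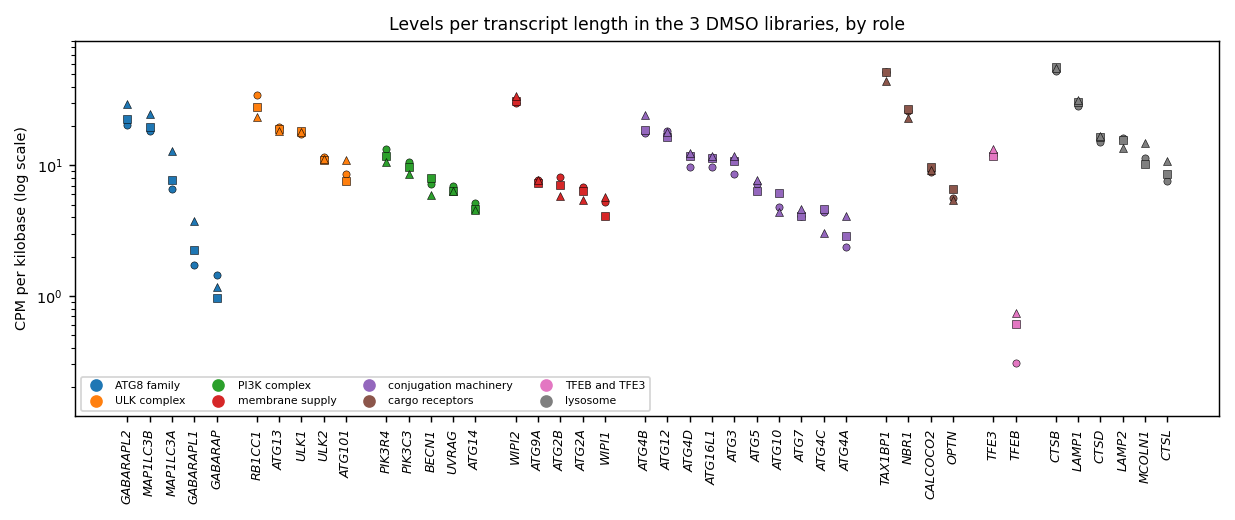
CPM per kilobase of the longest transcript (y axis, log scale) of the 42 genes in the 3 DMSO libraries (points), grouped and coloured by role and ordered by mean within a role. CTSB (54.9) and TAX1BP1 (49.4) are highest and TFEB (0.551) lowest, and within the ATG8 family GABARAPL2 and MAP1LC3B lie far above GABARAPL1 and GABARAP.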

How the data were processed

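Messenger RNA of SH-SY5Y cells was sequenced in 12 libraries, 3 for each of DMSO, HPPE, ZnPP and SnPP (5 µM, 5 h). The deposited table holds raw counts per gene, not normalized. The submitters' processing notes list fastp 0.21.1, STAR 2.7.7a, featureCounts and GRCh38. The annotation, the strand setting and the treatment of reads that match several genes are not given in the sources used here.

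From these counts, edgeR 4.0.16 (R 4.3.3) was run on all 12 libraries, with filterByExpr by group (16366 genes, holding 99.6% of counts), TMM scaling, 1 mean per group, robust dispersions and a two-sided quasi-likelihood test for each of 6 comparisons. P-values were adjusted by Benjamini-Hochberg over all genes tested, with a call at an adjusted p under 0.05. Standard errors come from the F statistic, and the biological coefficient of variation was 0.0913. CPM values use TMM-scaled library sizes. The depth, 1337028 to 9145399 counts, limits genes of low level, and counting floors cover counting error only.

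Each gene's length is that of its longest GENCODE 29 transcript (known for 16185 of the genes tested), and exon overlaps come from the same annotation, which need not be the authors'. Promoters come from RefSeq on GRCh38.p14. The procedure was tested on simulated data. The simulated libraries carried no length trend, so they do not show how such trends move the calls. The 42 genes, the other lists and the tests were chosen with earlier results of these data known. Values by library are given for genes of the 42 called in any comparison and for MAP1LC3B, ULK1, TFEB, TFE3, LAMP1 and CTSD. From each other list the rule names, for each comparison with DMSO, up to 2 called genes with the largest rise and up to 2 with the largest fall, and SQSTM1 in any case. Of the genes this rule names, 1 is not reported here, though it is included in the counts over its list. HMOX1 checks the HPPE and ZnPP labels, and cannot check that of SnPP.

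The 23 alternatives were no filter, a filter of 1 CPM in 3 libraries, RLE or unscaled library sizes, DESeq2 1.42.0, a fit of the 2 compared groups alone, dispersions without robust weighting, the replicate number as a block, a library axis (the first principal component of deviations from group means) as a covariate, HPPE replicates 2 and 3 summed, the lowess trend on transcript length (span 0.3) removed, and each library left out in turn.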

Additional observations from a re-analysis of the deposited data

How the results depend on the processing

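Of the differences of named genes, the 40 that were called kept their direction under the 23 alternatives. Of the 104 that were not called, 19 changed sign under at least 1 alternative, the largest of these lying 0.17 from 0 on the log2 scale. ULK1 with HPPE (0.01) changed sign in 7 alternatives, MAP1LC3B with SnPP (-0.08) in 2, and LAMP1 with HPPE (0.03) and TFE3 with ZnPP (0.08) in 1 each. With each library left out in turn, the number of the 42 genes called ran from 1 to 3 (HPPE against DMSO), 1 to 2 (ZnPP against DMSO), 0 to 3 (SnPP against DMSO), 1 to 16 (HPPE against ZnPP), 0 to 5 (HPPE against SnPP) and 0 to 6 (ZnPP against SnPP). In the same order, all genes called ran from 284 to 1106, 72 to 750, 146 to 627, 173 to 3517, 91 to 342 and 1 to 1453. Genes called in the other lists against DMSO ran from 2 to 15, 0 to 8 and 0 to 6. Between ZnPP and SnPP the 1453 genes were those called without SnPP replicate 2, against 1 with it. The counts that moved by more than 1.5 times under other settings are as follows, with the cause not tested unless stated. Without a low-count filter, 2 of the 42 (ZnPP against DMSO) were called, all genes numbered 904 (ZnPP against DMSO), 3186 (HPPE against ZnPP), 420 (HPPE against SnPP) and 270 (ZnPP against SnPP), and the other lists 14 with HPPE and 10 with ZnPP against DMSO. A filter of 1 CPM and DESeq2 each gave 2 genes between ZnPP and SnPP. With the compared groups only, the 42 gave 0 (SnPP against DMSO) and 18 (HPPE against ZnPP), all genes 131 (SnPP against DMSO), 4267 (HPPE against ZnPP) and 144 (HPPE against SnPP), and the other lists 1 (ZnPP) and 0 (SnPP). With HPPE replicates 2 and 3 summed, a group of fewer samples, the 42 gave 1 (HPPE against DMSO), 1 (SnPP against DMSO), 5 (HPPE against ZnPP) and 1 (HPPE against SnPP), all genes 384 (HPPE against DMSO), 458 (HPPE against ZnPP) and 119 (HPPE against SnPP), and the other lists 5, 1 and 1. With the length trend removed, the 42 gave 2 (ZnPP) and 4 (SnPP) against DMSO, all genes 1180, 803 and 747 against DMSO, 510 (HPPE against SnPP) and 23 (ZnPP against SnPP), and the other lists 8 (ZnPP) and 8 (SnPP). With the library axis as a covariate, log2 fold changes moved somewhat, that of MAP1LC3A between HPPE and ZnPP from 0.39 to 0.33. The axis sums to 0 within each group, and by construction it lowers the residual spread. It gave 10, 21, 6, 21, 14 and 7 of the 42 in the order above, 2672, 4158, 2207, 5698, 2594 and 2350 of all genes, and 34, 49 and 26 of the other lists. With the replicate number as a block, the 42 gave 1 (HPPE against DMSO), 1 (SnPP against DMSO) and 7 (HPPE against ZnPP), all genes 412, 133 and 209 against DMSO, 758 (HPPE against ZnPP) and 139 (HPPE against SnPP), and the other lists 0 (ZnPP) and 0 (SnPP). Among the genes named in the text, the calls lost with this block were those of GABARAPL1 (adjusted p = 0.0672), GLA (0.0820) and VPS39 (0.0963) with HPPE, TPP1 with ZnPP (0.0521), NBR1 (0.0897) and SESN3 (0.0924) with SnPP, and MAP1LC3B (0.0540), ULK1 (0.0758), RB1CC1 (0.0644) and TFEB (0.0777) between HPPE and ZnPP. The labels do not say whether the numbers pair the samples. Deviations of same-numbered libraries correlated from -0.68 to 0.52. These correlations cannot decide it, since the library axis held 52.7% of the variance within groups. HPPE replicates 2 and 3 had a chi-square per degree of freedom of 1.11, against 1.49 to 17.3 in the other pairs of a group, and were kept as separate samples.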
